A study of Rattus norvegicus with 12 samples.

Results

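Matricellular proteins are secreted into the extracellular matrix during wound repair, where they signal to cells more than they bear load. The genes described here are Postn, Tnc, Cthrc1, Spp1, Thbs1, Thbs2, Thbs4, Ccn1, Ccn2 and Fn1, a list of names drawn up with earlier results of these data known, so that the counts below describe these genes and are no independent comparison with the rest. Of these 10 genes, 9 were represented by 1 probe set each that carries the gene's symbol alone in the platform annotation, and Thbs1 was not analysed here. All 9 probe sets were among the 18625 of 31042 whose mean over all arrays exceeded the 40th percentile. These 18625 probe sets include 10623 genes with a symbol of their own.

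The tissue was myocardium of the left ventricular free wall, taken in the remote zone, from male Sprague-Dawley rats. Rats received streptozotocin (STZ, a toxin of pancreatic beta cells that makes rats diabetic) at 65 mg/kg or citrate buffer alone at 8 weeks of age, and were kept without control of blood sugar for 10 weeks. They then had the left anterior descending coronary artery ligated, which infarcts the territory it supplies, or a sham operation. The 12 arrays comprised, for each of the diabetic and non-diabetic arms, 1 sham array and 1 array each at 1, 7, 14, 28 and 56 days after ligation. Ages in the labels were 18 weeks for sham and day 1, 19 weeks for day 7, 20 weeks for day 14 and 22 weeks for day 28. At day 56 the diabetic array was labelled 26 weeks and the non-diabetic array 22 weeks. The time from sham operation to death was not given in the sources used here, and the tissue label of the sham arrays also names an infarct. Each array held pooled RNA of 3 rats, so that each arm and time point is 1 sample and the spread between rats was not measured.

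Matricellular proteins act through integrins, syndecans and growth factors held in the matrix. In the injured heart, fibroblasts, infiltrating macrophages and stressed cardiomyocytes are known sources of them. CCN1 and CCN2 are textbook targets of the co-activators YAP and TAZ, which act through TEAD transcription factors, while periostin and tenascin C mark activated fibroblasts in the healing heart.

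Levels are given as log2 of the deposited intensity plus 16, and differences are differences of these log2 values. A level can be compared between arrays but not between genes. Differences between time points are means of both arms, 2 arrays against 2, with the standard error (SE) of a limma fit to all 12 arrays. That error reflects how the gap between the arms varied over the time points. A gene was called when its limma p-value, adjusted over all 18625 probe sets, was under 0.05. In bulk tissue, fewer cells of a type and less RNA per cell cannot be told apart.

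Median intensities ranged from 28.8 to 34.7. The log2 signal of the 3' probe set of actin exceeded that of the 5' probe set by 0.97 to 0.99 on the 4 arrays of days 1 and 7, and by 0.37 to 0.59 on the other 8 arrays. The same difference for GAPDH did not set these days apart, at 0.32 to 0.36 on days 1 and 7 and 0.11 to 0.48 on the other arrays. The actin difference and the time points cannot be told apart for the changes on days 1 and 7. On days 14 and 28 the arms cross for most of the genes described here and for fibroblast and macrophage markers. Whether day labels were exchanged between arrays of an arm was not tested and cannot be settled from the labels, so every difference between arms on days 14, 28 and 56 rests on the days as labelled. All 7 cardiomyocyte markers on the array passed the intensity filter. Over the 12 arrays their summed intensity ran from 29599 on the diabetic day 1 array to 39013 on the diabetic day 28 array. The non-diabetic day 1 array had 38024. Another scaling moved the balance of all calls. Calls that were higher made up 56.2% on day 1 against sham, or 45.5% after quantile normalization. For day 7 against sham they made up 61.1%, or 40.2% after quantile normalization and 46.5% with array medians set equal. From day 1 to day 7 the share was 80.6%, or 71.0% and 70.1%, and from day 7 to day 14 it was 28.7%, or 51.2% and 41.6%. The median change of all probe sets on day 7 against sham was 0.15, and -0.030 after quantile normalization.

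Members are described in the order in which the mean of both arms peaked. On day 1 against sham, 3 of the 9 genes rose, namely Ccn1, Tnc and Ccn2, where 4.2% of all probe sets rose. On day 7 against sham 7 of 9 rose, where 4.67% of all probe sets did so. The 9 genes had a median change of 1.93 on day 1 and 3.04 on day 7, against 0.070 and 0.15 over all probe sets tested. The day 1 and day 7 comparisons share the sham arrays.

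**Figure D1:**
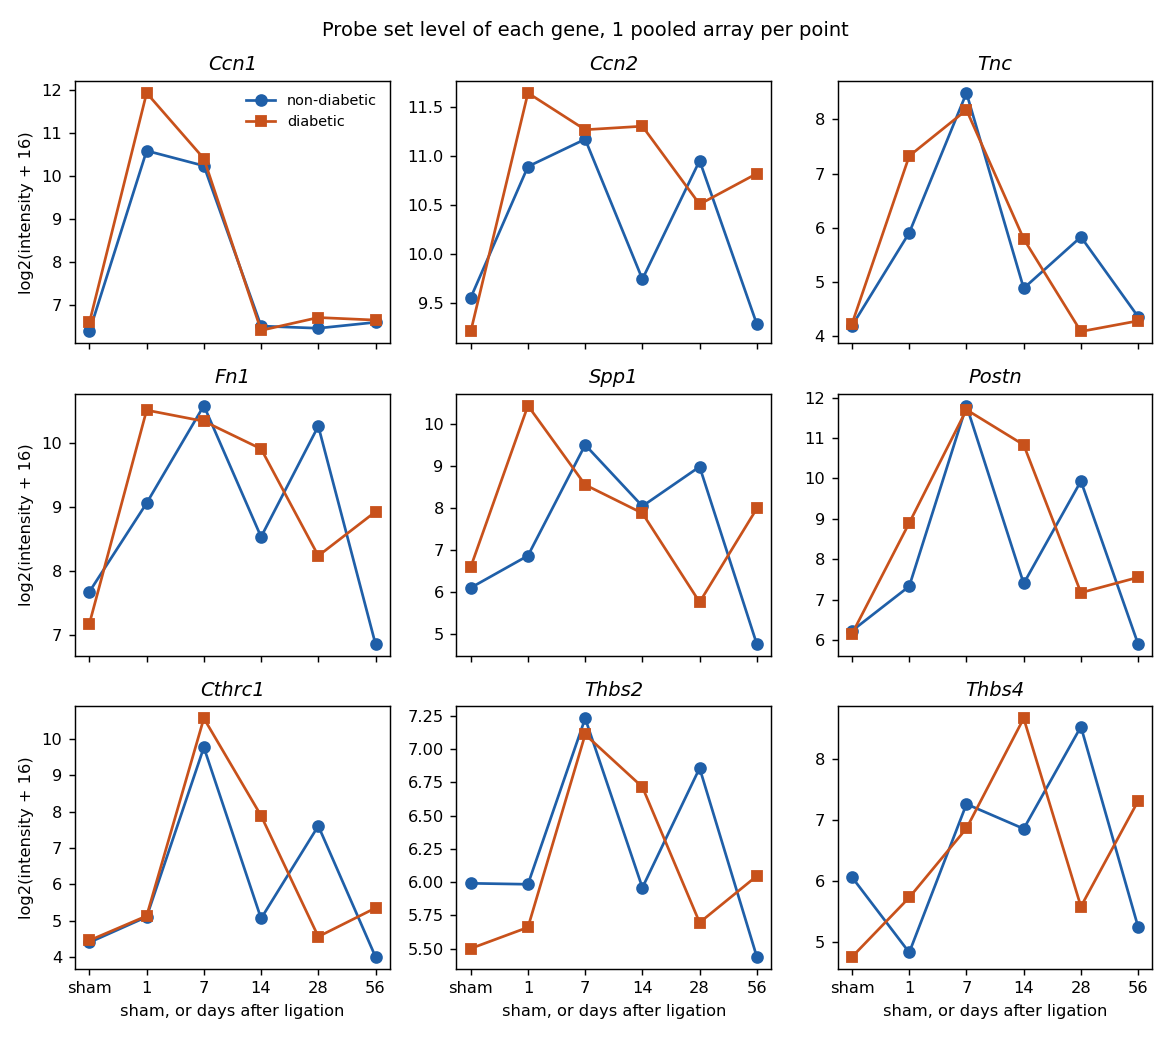
Level of each gene, as log2(intensity + 16) on the vertical axis with its own range per panel, at sham and at 1, 7, 14, 28 and 56 days after ligation, evenly spaced on the horizontal axis. Each point is 1 array of pooled RNA, circles for non-diabetic and squares for diabetic rats. Ccn1 is high on days 1 and 7 alone, while 7 of the other 8 genes have a late high on day 28 in non-diabetic and on day 14 in diabetic rats.

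The promoters of Ccn1 and Ccn2, the members with the earliest mean peak, are shown with those of Postn and Tnc, 2 genes that peaked on day 7, because TEAD factors recognise the sequence GGAATG. Sequences are the 250 bases before the annotated start in RefSeq, build GRCr8, written 5' to 3' on the gene's strand, with capitals marking GGAATG or its reverse complement CATTCC. Their positions are chr2:237225690-237225939 on the minus strand, chr1:22624615-22624864 on the minus strand, chr2:140677811-140678060 on the plus strand and chr5:82476132-82476381 on the minus strand.
Ccn1: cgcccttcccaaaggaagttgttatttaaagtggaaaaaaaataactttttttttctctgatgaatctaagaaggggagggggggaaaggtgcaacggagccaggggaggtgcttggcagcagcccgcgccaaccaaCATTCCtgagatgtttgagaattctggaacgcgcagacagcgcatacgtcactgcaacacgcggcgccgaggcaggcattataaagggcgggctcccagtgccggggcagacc
Ccn2: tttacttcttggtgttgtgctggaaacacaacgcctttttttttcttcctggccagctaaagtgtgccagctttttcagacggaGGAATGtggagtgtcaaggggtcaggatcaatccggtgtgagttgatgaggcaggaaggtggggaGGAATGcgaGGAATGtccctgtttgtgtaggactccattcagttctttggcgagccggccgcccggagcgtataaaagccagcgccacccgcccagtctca
Postn: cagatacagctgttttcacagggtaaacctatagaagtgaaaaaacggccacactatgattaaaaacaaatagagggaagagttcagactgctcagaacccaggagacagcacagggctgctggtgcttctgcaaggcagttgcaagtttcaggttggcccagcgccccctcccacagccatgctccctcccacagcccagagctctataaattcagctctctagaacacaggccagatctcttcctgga
Tnc: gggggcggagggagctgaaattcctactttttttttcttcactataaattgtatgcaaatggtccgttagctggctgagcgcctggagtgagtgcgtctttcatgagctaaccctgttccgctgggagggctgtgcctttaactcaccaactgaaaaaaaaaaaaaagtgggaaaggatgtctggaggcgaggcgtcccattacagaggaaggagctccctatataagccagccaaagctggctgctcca

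The Ccn2 window held GGAATG 3 times, at 166 to 161, 101 to 96 and 92 to 87 bases before the start. The Ccn1 window held it once on the opposite strand, at 113 to 108 bases, and the Postn and Tnc windows held none. Among 33469 rat promoter windows of the same length, searched on both strands, 12.1% held at least 1 match, 0.902% at least 2 and 0.0807% at least 3. Promoter sequences were matched for 7 of the 10 genes: the Spp1 window held no match, and those of Thbs4 and Thbs1 held 1 each. The TATA sequence TATAAA lay 34 to 29 bases before the start of Ccn1, 31 to 26 bases before that of Ccn2 and 44 to 39 bases before that of Postn, and farther off at 208 to 203 bases in Tnc and 204 to 199 in Spp1, and did not overlap a GGAATG match. TATAAA occurred in 12.9% of all windows. Only these exact letters were searched, so TATATAAG near the end of the Tnc window was not counted. No window of the 7 genes held the AP-1 sequence TGANTCA, found in 6.34% of all windows, or a CArG box, found in 1.5%. A match is a description of letters and not a binding site.

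Ccn1, also called Cyr61, is an immediate early gene whose product binds integrins and regulates adhesion, survival and senescence of fibroblasts. In non-diabetic rats its level was 6.40 in sham and 10.59, 10.24, 6.52, 6.47 and 6.61 on days 1, 7, 14, 28 and 56. Diabetic rats had 6.61 in sham and 11.92, 10.40, 6.42, 6.72 and 6.66 on the same days. The 4 arrays of days 1 and 7 lay above all 8 others, which spanned only 6.40 to 6.72. Ccn1 rose by 4.75 ± 0.33 (SE, 2 arrays against 2) on day 1, a 27.0-fold increase (limma adjusted p = 3.0e-05), and was 3.82 ± 0.33 above sham on day 7 (adjusted p = 0.000157). From day 7 to day 14 it fell by 3.85 ± 0.33 (adjusted p = 0.000164), which returned it to within 0.03 of sham. These 3 calls held under every alternative run, with changes from 4.14 to 5.36 on day 1. The day 1 level was higher in the diabetic array by 1.34, a difference between single arrays that was not tested.

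Ccn2, connective tissue growth factor, promotes matrix production by fibroblasts together with TGF-beta. The non-diabetic series ran from 9.55 in sham to 10.90, 11.18, 9.74, 10.96 and 9.28 on days 1, 7, 14, 28 and 56. In diabetic rats the levels were 9.21 in sham and then 11.65, 11.27, 11.31, 10.51 and 10.82. Every ligated diabetic array thus exceeded both sham arrays, whereas the non-diabetic array of day 56 lay below its sham and that of day 14 was 0.19 above it. Ccn2 rose by 1.89 ± 0.46 on day 1 (limma adjusted p = 0.0347) and by 1.84 ± 0.46 on day 7 (adjusted p = 0.0366). Its means on days 1 and 7 differed by only 0.048, far less than the SE of 0.46, so its peak is not separated between them. Both calls were lost when any 1 of the 4 arrays compared was left out, the day 1 call also without the day 7 pair (adjusted p = 0.0505) and the day 7 call without the day 1 pair (0.0512). The paralogues Ccn1 and Ccn2 thus shared the early rise, but only Ccn1 fell on day 14 by the test, where the change of Ccn2 was -0.70 ± 0.46 (adjusted p = 0.313). Whether these 2 changes differ was not tested.

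Tnc encodes tenascin C, a large hexameric glycoprotein that loosens cell adhesion and is scarce in healthy adult myocardium. Its non-diabetic level was 4.19 in sham, 5.91 on day 1, 8.49 on day 7, 4.88 on day 14, 5.83 on day 28 and 4.36 on day 56. The diabetic arrays read 4.23, 7.32, 8.17, 5.79, 4.08 and 4.28 at the same points. Both sham values lie under the intensity filter threshold of 5.20, so that the size of a change against them depends on the offset. Tnc rose by 2.41 ± 0.54 on day 1 (limma adjusted p = 0.0262) and by 4.12 ± 0.54 on day 7, or 17.4-fold (adjusted p = 0.00173). The day 7 change was 6.46 with an offset of 1 and 2.48 with an offset of 64. It fell by 2.99 ± 0.54 from day 7 to day 14 (adjusted p = 0.00803). The day 7 rise was called under every alternative run, the day 1 rise in 11 of 15. The day 1 rise was not called when either sham array, the diabetic day 1 array or the day 56 pair was left out, with adjusted p from 0.0511 to 0.238. The fall to day 14 was not called without the non-diabetic array of day 7 or of day 14 (adjusted p = 0.111 and 0.122).

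Fn1 encodes fibronectin, the adhesive glycoprotein of provisional matrix that integrins bind. Non-diabetic levels were 7.67 in sham and 9.06, 10.58, 8.53, 10.26 and 6.85 on days 1, 7, 14, 28 and 56. Diabetic levels were 7.17 in sham and 10.51, 10.34, 9.91, 8.23 and 8.93 on those days. The diabetic series was highest on day 1 and the non-diabetic on day 7. The Fn1 means on days 7 and 1 differed by 0.68, less than the SE of 0.76, so its peak is not separated between them. Fn1 rose by 3.04 ± 0.76 on day 7, or 8.22-fold (limma adjusted p = 0.0364), and was at 2.36 ± 0.76 on day 1 (adjusted p = 0.0817, and 0.0134 without the day 28 pair). Its day 7 call was lost without any 1 of the 4 arrays compared.

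Spp1 encodes osteopontin, a secreted phosphoprotein made by macrophages that binds integrins and CD44. Its non-diabetic levels were 6.09 in sham, 6.86, 9.50, 8.04, 8.98 and 4.75 on days 1, 7, 14, 28 and 56. Diabetic rats had 6.59 in sham and 10.44, 8.55, 7.87, 5.75 and 7.98. The diabetic peak was on day 1, where the level was 3.58 above the non-diabetic one, and the non-diabetic peak was on day 7. Spp1 was at 2.31 ± 1.24 on day 1 (limma adjusted p = 0.269) and 2.68 ± 1.24 on day 7 (adjusted p = 0.203), and neither passed the test. These 2 means differed by 0.38, less than the SE, so the mean peak of Spp1 is not separated between them. Its SE was the largest of the 9 genes, and its arms moved in opposite directions between days 1 and 7, by 2.64 in non-diabetic and -1.89 in diabetic rats.

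Postn encodes periostin, a protein of activated fibroblasts that promotes collagen cross-linking. In the non-diabetic arm it measured 6.23 in sham and 7.33, 11.80, 7.40, 9.93 and 5.89 on days 1, 7, 14, 28 and 56. In the diabetic arm it measured 6.15 in sham and 8.90, 11.70, 10.83, 7.17 and 7.55. Both arms peaked on day 7, 0.10 apart, whereas their day 14 levels lay 3.44 apart. Postn rose by 5.57 ± 1.02 on day 7, or 47.4-fold (limma adjusted p = 0.00999). The change from day 7 to day 14 was -2.64 ± 1.02 (adjusted p = 0.0976), made of -4.41 in non-diabetic and -0.87 in diabetic rats. Of the 4 arrays behind the day 7 comparison, only the non-diabetic sham array could be left out with Postn still called (limma adjusted p = 0.0494). Without the day 28 pair or the diabetic day 14 array, Postn was called lower on day 14 than on day 7 (adjusted p = 0.0153 and 0.0274).

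Cthrc1 encodes a secreted protein with a short collagen repeat that marks matrix-producing fibroblasts. The levels were 4.40, 5.10, 9.77, 5.06, 7.61 and 4.00 in non-diabetic rats, from sham to day 56. They were 4.45, 5.13, 10.57, 7.89, 4.56 and 5.35 in diabetic rats. The 2 arms were within 0.06 of each other in sham and on day 1, and both then jumped between day 1 and day 7. Cthrc1 rose by 5.75 ± 0.94 on day 7, or 53.6-fold (limma adjusted p = 0.00609), a call lost without the diabetic sham or diabetic day 7 array (0.0616 and 0.0545). Both sham values lie under the filter threshold of 5.20, so the size depends on the offset: the change was 7.45 with an offset of 1 and 4.11 with an offset of 64. It was the only member called between day 1 and day 7, rising by 5.06 ± 0.94 (adjusted p = 0.0483), where 0.403% of all probe sets rose. That call was lost in 9 of 15 alternatives, among them the fits without any 1 array of those days, without the sham pair or the day 56 pair, and after quantile normalization. Without the day 28 pair, 4 members were called in this step, namely Cthrc1, Postn, Tnc and Thbs2. Calls over all probe sets in this step numbered 93 with all arrays and up to 487 over the alternatives. Cthrc1 fell by 3.70 ± 0.94 from day 7 to day 14 (adjusted p = 0.0264), which was not called with an offset of 1 or without either day 7 array or the non-diabetic day 14 array.

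Thbs2 encodes thrombospondin 2, which binds matrix proteases and restrains vessel growth. Levels in the non-diabetic arm were 5.99 in sham, then 5.98, 7.23, 5.96, 6.86 and 5.44. Levels in the diabetic arm were 5.50, then 5.66, 7.11, 6.71, 5.70 and 6.05. Its range was the smallest of the late genes, and the day 7 arrays of both arms exceeded the other 10. Thbs2 rose by 1.42 ± 0.39 on day 7 (limma adjusted p = 0.0481), a call held in 5 of 15 alternatives. Among others it was lost with an offset of 1, after either other scaling, without a variance trend, without the day 1 or day 56 pair and without any 1 of the 4 arrays compared.

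Thbs4 encodes thrombospondin 4, a pentameric protein of tendon, vessel and stressed heart muscle. In non-diabetic rats it read 6.07 in sham and 4.83, 7.27, 6.86, 8.54 and 5.25 on days 1, 7, 14, 28 and 56. In diabetic rats it read 4.76 in sham and 5.73, 6.87, 8.67, 5.58 and 7.32. Its highest array was day 28 in non-diabetic and day 14 in diabetic rats, at nearly equal levels. It is the only member with a mean peak after day 7. The Thbs4 means on days 14 and 7 differed by 0.70, less than the SE of 0.94, so this peak is not separated from day 7. The day 14 mean exceeded sham by 2.35 ± 0.94 (limma adjusted p = 0.407) and the day 7 mean exceeded it by 1.65 ± 0.94 (adjusted p = 0.297), so no change was called. On day 1 the arms moved apart from sham, by -1.23 in non-diabetic and 0.97 in diabetic rats.

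**Figure D2:**
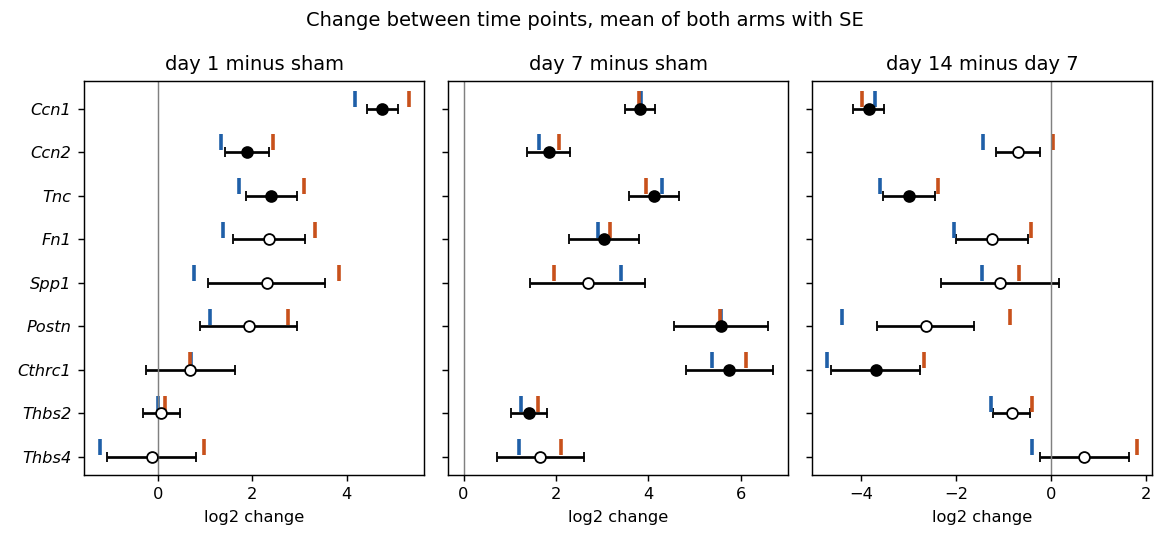
Change of each gene in log2 units on the horizontal axis, for day 1 minus sham, day 7 minus sham and day 14 minus day 7. Circles are means of both arms with the limma SE, filled where the adjusted p was under 0.05; short ticks are the non-diabetic (blue) and diabetic (orange) arms alone. Ccn1 lies at 4.75 on day 1, and Cthrc1 and Postn at 5.75 and 5.57 on day 7; the order of genes depends on the offset of 16.

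From day 7 to day 14, 3 of 9 members fell, namely Ccn1, Tnc and Cthrc1, where 11.5% of all probe sets fell. Without the day 28 pair 4 members were called, while calls over all probe sets in this step went from 2999 to 4463. Leaving out the non-diabetic array of day 7 or of day 14 left 1 array for that day, and fewer members were called. Calls over all probe sets were fewest without the non-diabetic day 14 array. No other comparison of the later days called a member. By limma, 0 of 9 members passed for day 14, day 28 or day 56 against sham, where 0% of all probe sets passed in each. At an unadjusted p under 0.05 there were 4 members on day 14 (Postn, Thbs4, Ccn2 and Fn1), 3 on day 28 and 0 on day 56, against 2172, 675 and 3062 of all probe sets. The steps from day 14 to day 28 and from day 28 to day 56 also called 0 members and 0% of all probe sets. At an unadjusted p under 0.05 each step had 0 members, against 1672 and 2271 of all probe sets. Without the diabetic day 28 array, day 28 rested on 1 array. Calls in the step to day 56 then appeared among all probe sets as well as among members (Cthrc1, Postn, Fn1 and Tnc, lower on day 56).

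Averaged over all 6 time points, diabetic minus non-diabetic differences ranged from -0.12 for Thbs2 to 0.62 for Postn. They depended on single pairs of arrays: leaving out day 14 gave 0.057 for Postn and leaving out day 28 gave 1.30, while Fn1 ran from 0.012 (day 56 left out) to 0.83 (day 28 left out). By limma 0 of 9 members passed, where 0.376% of all probe sets did. At an unadjusted p under 0.05 there were 0 members, against 1974 of the 18625 probe sets. The 95% intervals were wide: -0.68 to 1.92 for Postn, -1.08 to 2.07 for Spp1, -0.060 to 1.11 for Ccn2 and -0.10 to 0.74 for Ccn1. An exact two-sided sign-flip permutation test over the 6 pairs gave its lowest p, 0.0938, for Ccn1, the smallest p possible being 0.0313. The interactions of diabetes with ligation and with the early days likewise called 0 members and 0% of all probe sets. At an unadjusted p under 0.05 each had 0 members, against 125 and 974 of all probe sets.

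At single time points the differences were larger and of opposite sign. The diabetic array was higher for 8 of 9 members on day 1, 7 of 9 on day 14 and 8 of 9 on day 56, with median differences of 1.34, 1.38 and 1.54. It was higher for only 1 of 9 on day 28, with a median difference of -2.03. In sham 4 of 9 and on day 7 3 of 9 were higher, with medians of -0.075 and -0.12. Over all probe sets the share higher in the diabetic array was 45.7% in sham, 39.0% on day 1 and 45.2% on day 7. It was 56.1% on day 14, 45.1% on day 28 and 69.0% on day 56. These are differences between single pooled arrays and were not tested.

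By size, 5 members were at least 1 log2 unit higher in the diabetic array on day 1, where 0.891% of all probe sets were. On that day 0 members were at least 1 lower, where 2.27% of all probe sets were. On day 14, 5 members were at least 1 log2 unit higher, where 6.06% of all probe sets were. Postn at 3.44 and Cthrc1 at 2.83 led them. On day 28, 7 members were at least 1 log2 unit lower, where 6.46% of all probe sets were, with Spp1 at -3.23, Cthrc1 at -3.05, Thbs4 at -2.95 and Postn at -2.77. On day 56, 6 members were at least 1 log2 unit higher, where 2.45% of all probe sets were, led by Spp1 at 3.24. Ccn1 differed by 1.34 on day 1 but little on days 14, 28 and 56, by between -0.10 and 0.25.

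Among days 14, 28 and 56, the highest level fell on day 28 in non-diabetic and on day 14 in diabetic rats for 7 of 9 members. The same held for 26.9% of all probe sets. From day 14 to day 28, 8 of 9 members increased in the non-diabetic arm and 1 of 9 in the diabetic arm, against 58.1% and 46.4% of all probe sets. From day 28 to day 56 the counts were 1 of 9 and 8 of 9, against 33.4% and 47.7%. By the labelled days, the late maxima of these 7 members thus fell on different days in the 2 arms. The acyl-CoA thioesterase gene Acot1, chosen from earlier results of these data, was higher in the diabetic array at all 6 time points. It differed by 2.44 on day 14 and 2.74 on day 28. The gene Pdk4, looked at beside it, differed by 3.43 and 3.42 on these days and by 0.56 on day 1. Because Acot1 was chosen in this way, its values are no independent check of the arm of each array. They do not bear on the day of an array.

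**Figure D3:**
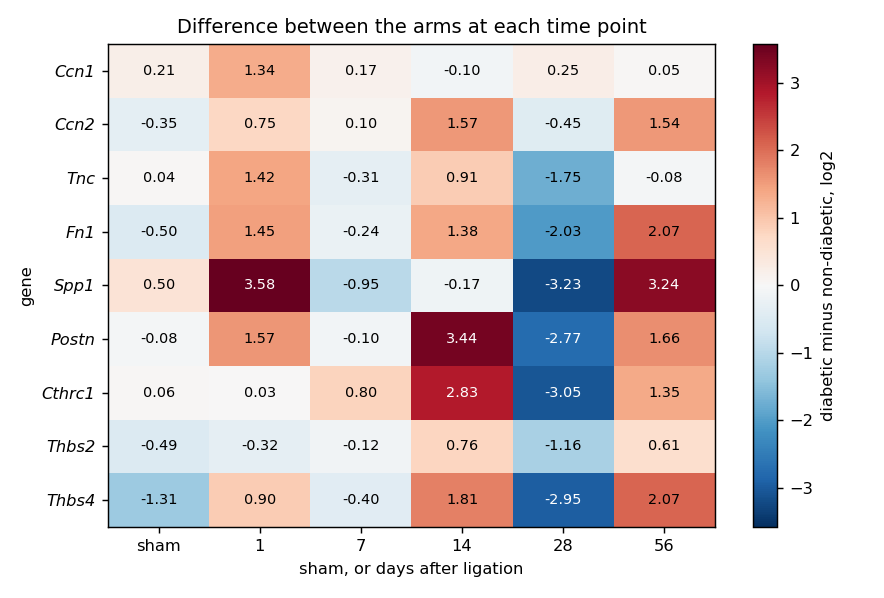
Diabetic minus non-diabetic difference of each gene in log2 units, printed and coloured in each cell, by time point (horizontal axis) and gene (vertical axis); each cell compares 1 pooled array with 1 other. Days 14 and 56 are mostly red (diabetic higher) and day 28 mostly blue, down to -3.23 for Spp1, while Ccn1 stays between -0.10 and 0.25 on these days.

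Fibroblast markers followed the members on some days and not on others. The mean log2 level of 12 fibroblast markers was 9.75 and 9.60 on day 7 (non-diabetic, diabetic), against 8.88 and 8.60 in sham. It was 9.04 in non-diabetic and 9.68 in diabetic rats on day 14, 9.68 and 8.74 on day 28, then 8.43 and 9.08 on day 56. The arms of these markers thus crossed on the same days as those of the members. By limma 3 of 12 fibroblast markers rose on day 7 and 0 fell, where 4.67% and 2.97% of all probe sets did. Those that rose were the collagen I genes Col1a1 (3.74 ± 0.60) and Col1a2 (2.98 ± 0.49) and the surface protein gene Thy1 (1.87 ± 0.43). The other 9 did not pass, among them Gsn at -1.03 ± 0.31, the actin-severing protein gelsolin. Pdgfra, Tcf21 and Dcn, also among them, were at 0.35 ± 0.44, -0.26 ± 0.34 and 0.13 ± 0.26. On day 1 none of the 12 had a change above 0, while Ccn1, Ccn2 and Tnc rose. The diabetic array was higher for 10 of 12 on day 14, 2 of 12 on day 28 and 12 of 12 on day 56. Of all probe sets, 56.1%, 45.1% and 69.0% were higher on these days. Summed fibroblast intensity ranged from 9089 to 20676 over the non-diabetic and from 6333 to 20304 over the diabetic arrays. The part of fibroblast markers in the members' changes was not tested.

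Macrophage markers, 12 on the array and all above the filter, had mean levels of 8.03 and 7.78 in sham and 8.92 and 8.64 on day 7. On day 28 they stood at 8.92 in non-diabetic and 7.70 in diabetic rats, with 0 of 12 higher in the diabetic array. The day 56 means were 6.33 and 7.24, with 12 of 12 higher. Of all probe sets, 45.1% were higher in the diabetic array on day 28 and 69.0% on day 56. Trem2, a lipid receptor of macrophages, was the only macrophage marker called on day 7, at 1.48 ± 0.36 (limma adjusted p = 0.0323). Over all probe sets 4.67% rose on that day. Their summed intensity ranged from 1129 to 10190 in non-diabetic and from 2623 to 8763 in diabetic rats. In the non-diabetic arm the sum was highest on day 7 and lowest on day 56, as was Spp1. In the diabetic arm the sum was likewise highest on day 7 and lowest on day 56, whereas Spp1 was highest on day 1 and lowest on day 28. The part of macrophage markers in the result was not tested.

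Of 5 neutrophil markers on the array, 4 passed the filter and Cxcr2 did not. On day 1, 2 of the 4 rose, where 4.2% of all probe sets did. S100a8 rose by 2.48 ± 0.61 and Csf3r by 1.61 ± 0.28 (limma adjusted p = 0.0348 and 0.00743). S100a9 at 2.10 ± 0.89 and Mmp8 at -0.23 ± 0.25 did not pass (limma adjusted p = 0.17 and 0.61). The summed intensity of the 5 neutrophil markers on day 1 was 1912 in diabetic and 824 in non-diabetic rats, against 209 and 338 in sham. The day 28 sums were 178 in diabetic and 1153 in non-diabetic rats. The arrays with the highest sum in each arm were therefore the diabetic day 1 array, which also held the highest Spp1, and the non-diabetic day 28 array. In the non-diabetic arm Spp1 was highest on day 7, at 9.50, where the neutrophil sum was 135. The part of neutrophil RNA in these levels was not tested.

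**Figure D4:**
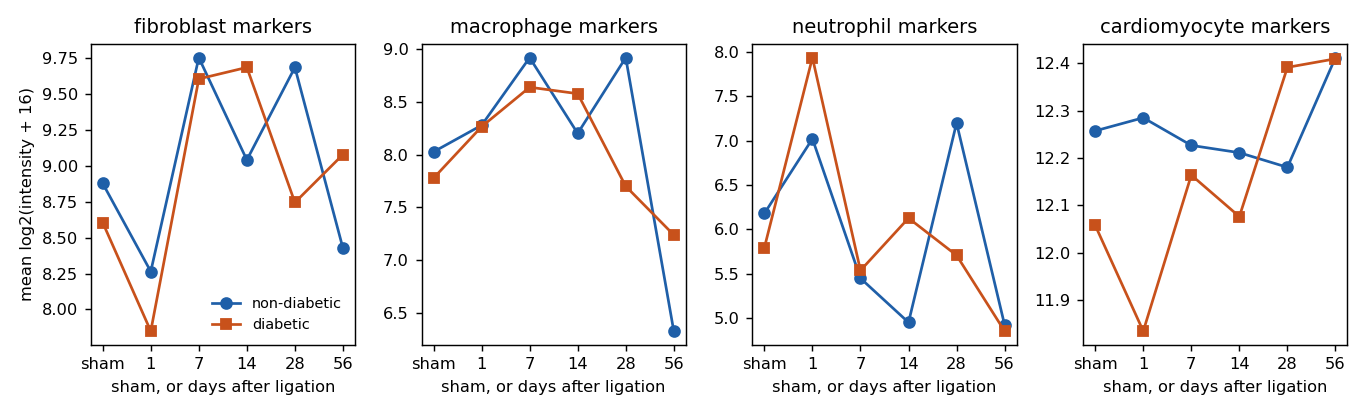
Mean log2(intensity + 16) of fibroblast, macrophage, neutrophil and cardiomyocyte markers on the vertical axis, at sham and at 1 to 56 days after ligation, with 1 pooled array per point and its own range per panel. Fibroblast and macrophage markers cross between arms on days 14 to 56; on day 28 the macrophage mean is 8.92 in non-diabetic and 7.70 in diabetic rats.

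Of 25 other matricellular and adhesive matrix genes tested on day 1, 3 rose and 3 fell by limma, where 4.2% and 3.27% of all probe sets did, with a median of -0.21 against 0.089 for all genes. The lowest p-values belonged to Sparcl1 (-1.51 ± 0.27), a relative of SPARC, Mfap4 (-2.46 ± 0.45), a microfibril protein, Aspn (-2.27 ± 0.47), a small proteoglycan, and Vcan (2.46 ± 0.55), the large proteoglycan versican. On day 7, 3 of 25 rose and 0 fell, where 4.67% of all probe sets rose, namely Sparc (1.30 ± 0.22), which binds collagen, Vcan (2.21 ± 0.55) and Aspn (1.78 ± 0.47), with a median of 0.80 against 0.16 for all genes. Of the 28 on the array, the diabetic level was higher for 17 on day 14, 3 on day 28 and 22 on day 56, in single arrays. The share of all probe sets higher in the diabetic array was 56.1%, 45.1% and 69.0% on these days. Between diabetic and non-diabetic arrays Angptl4, a secreted inhibitor of lipoprotein lipase, was the only one called, at 2.73 ± 0.49 (limma adjusted p = 0.0423). Over all probe sets 0.376% were called.

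Of 21 receptors of the members tested on day 1, 4 rose and 0 fell by limma, where 4.2% of all probe sets rose: the integrin subunit Itga9 (1.40 ± 0.25), which binds tenascin C and osteopontin, the thrombospondin receptor subunit Cacna2d1 (1.50 ± 0.37), and the syndecans Sdc1 (2.03 ± 0.51) and Sdc4 (1.21 ± 0.31). On day 7, 3 rose and 0 fell, where 4.67% of all probe sets rose, namely Itga8 (1.37 ± 0.22), Itga9 (1.12 ± 0.25) and the Wnt co-receptor Lrp6 (0.88 ± 0.20). From day 7 to day 14, 6 of 21 fell and 0 rose, where 11.5% of all probe sets fell, among them Lrp6 at -1.10 ± 0.20, Itga8 at -1.06 ± 0.22, Cacna2d1 at -1.36 ± 0.37 and the EGF receptor gene Egfr at -1.10 ± 0.32. The median change of the list in that step was -0.38, against -0.096 for all genes.

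Of 33 genes of TGF-beta, YAP/TAZ-TEAD and SRF signalling tested on day 1, 2 rose and 1 fell by limma, shares near the 4.2% and 3.27% of all probe sets that rose and fell. Tgfb2, a TGF-beta ligand, rose by 2.83 ± 0.39, Fosl1, an AP-1 subunit, rose by 2.01 ± 0.23, and Tead4, a TEAD factor, was at -1.08 ± 0.23. On day 7, 1 rose and 1 fell, where 4.67% and 2.97% of all probe sets did, with Ltbp2, a relative of the latent TGF-beta binding proteins, at 3.95 ± 0.97 and Tead4 at -1.06 ± 0.23. Tead4 rose by 0.91 ± 0.23 from day 7 to day 14. The other TEAD genes of the list did not pass on either day, with Tead1 at 0.56 ± 0.26 and 0.51 ± 0.26 and Tead3 at 0.11 ± 0.24 and 0.44 ± 0.24 on days 1 and 7. These 2 were chosen after their values were seen. The day 1 and day 7 values rest on the same sham arrays.

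The genes whose levels ran most like each member were found by Pearson's r over the 12 arrays among 10623 genes, as a description, since all arrays share the same time points. The nearest to Postn was Col5a2, a collagen V chain (r = 0.976), and the nearest to Cthrc1 was C1qtnf3, a C1q-related secreted protein (r = 0.987). Ppic, a cyclophilin, was among the 3 nearest of Postn, Cthrc1 and Thbs2. The nearest to Thbs2 was Fstl1, a follistatin-like secreted protein (r = 0.973), and to Thbs4 was Aebp1, which binds collagen (r = 0.967), followed by Serpinf1 and the gelatinase gene Mmp2. For Ccn1 it was Ranbp1, a partner of the GTPase Ran (r = 0.988), followed by Rgcc and Uba6. The nearest to Fn1 was Synpo, an actin-associated protein (r = 0.975), to Ccn2 Tns3, a tensin of focal adhesions (r = 0.932), to Tnc Rab32 (r = 0.966) and to Spp1 Tbc1d1 (r = 0.921).

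Among the members, Postn ran closest to Cthrc1 (r = 0.955), Thbs2 to Cthrc1 (r = 0.953) and Fn1 to Ccn2 (r = 0.932). Ccn1 ran closest to Tnc (r = 0.809), then to Ccn2 (0.629), Fn1 (0.607) and Spp1 (0.572), and had lower values to Postn (0.452), Cthrc1 (0.381), Thbs2 (0.242) and Thbs4 (-0.221). These values also describe 12 arrays that share time points, pools and the split of actin signal between days.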

How the data were processed

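Affymetrix rat arrays were hybridised with biotin-labelled total RNA pooled from 3 rats each, per the labels. The authors deposited 1 linear intensity per probe set and array, made with Affymetrix Expression Console and PLIER as the submitters' processing notes state. Software versions and any background correction or scaling were not given in the sources used here.

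Of 31099 probe sets, 57 controls were removed. Values were used as log2(intensity + 16), which understates changes of dim genes. A probe set was kept when its mean exceeded the 40th percentile (5.20), which left 18625. Groups came from the labels. limma 3.58.1 in R 4.3.3 fitted time point (6 levels) plus diabetes to 12 arrays, with 5 residual degrees of freedom and a variance trend. Interactions left 4 and 3. P-values were Benjamini-Hochberg adjusted over all 18625 probe sets per comparison at 0.05, and the code was tested on simulated data. The residual reflects how the arm difference varied over time, not rat-to-rat spread, and the number of arrays limits the precision.

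Where several probe sets named a gene, the one with the highest mean was used. The members were named in full, the 3 most correlated genes for each, and up to 4 genes with the smallest p per list. Members and gene lists were chosen with earlier results of these data known. Promoters came from RefSeq, build GRCr8. Alternatives were other offsets (1 and 64), scalings, filter, variance trend and left-out arrays.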

Additional observations from a re-analysis of the deposited data

Results flagged for a closer look

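In 19 cases the 2 arms moved in opposite directions, each by at least 0.5 log2 units, between the same time points. Each arm is 1 pooled array per time point, so these differences were not tested. The rule was applied to the members alone, and the share of all probe sets that meet it was not computed. Values are the diabetic change minus the non-diabetic change.

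Between day 14 and day 28 this held for 8 of the 9 members, Ccn1 being the exception: -6.20 for Postn, -2.66 for Tnc, -5.88 for Cthrc1, -3.06 for Spp1, -1.92 for Thbs2, -4.76 for Thbs4, -2.01 for Ccn2 and -3.41 for Fn1. Postn increased by 2.54 in the non-diabetic arm and fell by 3.66 in the diabetic arm. Over all probe sets, 58.1% increased in the non-diabetic arm and 46.4% in the diabetic arm in this step. Between day 28 and day 56 the signs were turned, with 4.40 for Cthrc1, 6.47 for Spp1, 5.02 for Thbs4 and 4.10 for Fn1.

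Against sham, the arms opposed each other on day 56 with 2.74 for Spp1, 1.10 for Thbs2, 3.38 for Thbs4 and 2.57 for Fn1, and on day 28 with -3.73 for Spp1. On day 1 against sham Thbs4 gave 2.21, where the non-diabetic day 1 (4.83) and diabetic sham (4.76) levels lay under the filter threshold. From day 1 to day 7 Spp1 gave -4.53. Comparisons with sham share the sham array of their arm.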

How the results depend on the processing

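The day of the mean peak was unchanged under offsets of 1 and 64, quantile normalization and equal array medians; leaving out a pair removed only its own day. Each member had 1 probe set, so no other probe set could be tried, and a pair that a comparison uses was not left out of it. The count of members called on day 1 against sham was 3 with other offsets, scalings, filter and variance trend, 1 to 4 with arrays or pairs left out (1 without either sham array or the diabetic day 1 array), and 5 without the day 14 and day 28 pairs, an alternative chosen after seeing the data, as was leaving out single arrays. On day 7 against sham the count was 6 or 7 with other settings and 2 to 7 with arrays or pairs left out (4 without the non-diabetic sham array, 3 without the non-diabetic day 7 array, 2 without either diabetic array). From day 1 to day 7 it was 1, but 0 with an offset of 1, quantile normalization or no variance trend, 0 to 4 with arrays or pairs left out (4 without the day 28 pair), and 4 without both late pairs. From day 7 to day 14 it ranged from 1 to 4, and from day 28 to day 56 from 0 to 4, with arrays or pairs left out. The diabetic minus non-diabetic difference changed sign for Tnc with an offset of 1 (-0.28) and without the day 1 (-0.24) or day 14 pair (-0.14), or days 1 and 7 together (-0.22). It also did so for Thbs4 without the day 1 (-0.16), day 14 (-0.34) or day 56 pair (-0.39) or days 1 and 7 (-0.094). Over the pairs left out, the differences ran from -0.24 to 0.40 for Tnc, -0.16 to 1.01 for Cthrc1, -0.12 to 1.24 for Spp1, -0.30 to 0.086 for Thbs2 and -0.39 to 0.62 for Thbs4, and kept their sign for Postn (0.057 to 1.30), Fn1 (0.012 to 0.83), Ccn1 and Ccn2. Sign changes came too for Cthrc1 without the day 14 pair (-0.16), Spp1 without the day 1 (-0.12) or day 56 pair (-0.055), and Thbs2 without the day 28 pair (0.086). None of these was called in any setting, and the cause was not tested. Over all probe sets, calls on day 1 numbered 1392, from 187 to 3473 over the alternatives (2384 without the filter), and on day 7 1424, from 168 to 3560 (2775 without the filter). From day 1 to day 7 they numbered 93, from 18 to 487, from day 7 to day 14 2999, from 189 to 4463, and for diabetes 70, from 6 to 92. Without the filter 10 probe sets were called on day 56 against sham, where 0 were called with it, and up to 1250 without the day 14 and day 28 pairs. From day 28 to day 56, 2241 were called without the diabetic day 28 array.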
